A study of Homo sapiens with 6 samples.

Results

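GSTO1 knockdown and GSTO1 inhibition were set side by side at 24 h, as the nascent RNA of 2 libraries out of the 6 in the series: HCT116 cells treated with GSTO1 siRNA (siGSTO1, 10 nM, 24 h) and HCT116 cells treated with C1-27 (1 μM, 24 h). They were chosen by treatment and time in the sample labels, as the one pair in which gene knockdown and enzyme inhibition share a treatment time. HCT116 is an established human colorectal carcinoma line, C1-27 is the GSTO1 inhibitor developed in the study, and the other libraries were DMSO (0.01%, 4 h, labelled 1 and 2), C1-27 at 4 h (1 μM) and the inactive analogue C1-14 at 4 h (10 μM). All cultures were given bromouridine for 0.5 h with no chase, so the captured RNA was that made during the label (Bru-seq). The study's methods list several GSTO1 siRNAs, delivered with a lipid reagent, without stating which was used for nascent RNA. No non-targeting siRNA or 24 h DMSO library was analysed here, so transfection and loss of GSTO1 cannot be told apart in the siGSTO1 library. The paper reports that the inhibitor also binds protein disulfide isomerase, and proposes that other targets may add to its toxicity. Inhibition of GSTO1 and effects on other targets therefore cannot be told apart in the C1-27 libraries. Because DMSO was given for 4 h only, treatment and time cannot be told apart where either 24 h library is set against DMSO. Each treatment had 1 library. Genes were read on the sense strand only, and 21471 of 22984 were larger than 300 bp.

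GSTO1 is a glutathione transferase of the omega class, which uses a cysteine in its active site to reduce glutathionylated and other oxidized substrates. An siRNA destroys the mature mRNA, so nascent transcripts need not report the knockdown, whereas an inhibitor leaves the gene and its mRNA in place. Several programmes report stress in such cells. ATF4, translated when eIF2α is phosphorylated, drives genes for amino acid synthesis and uptake and for glutathione breakdown. NRF2, released from KEAP1 when its cysteines are modified, drives genes for glutathione synthesis and thioredoxin reduction, p53 drives cell cycle arrest genes, and YAP with TEAD drives genes of adhesion and matrix.

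Sense counts came to 20214413 in the siGSTO1 library, 36841146 in the C1-27 24 h library and 18112861 to 32906297 in DMSO. Of the 7 epithelial markers, 4 or 5 were above 0.5 RPKM in every library (reads per kilobase of gene scaled to the mapped reads), and the summed level of 14 markers of other cells was between 0.775 and 1.51 RPKM, highest in siGSTO1 and at 0.881 in C1-27 24 h. In bulk RNA, fewer cells of a kind and less RNA per cell cannot be told apart. In the edgeR quasi-likelihood test with Benjamini-Hochberg adjustment, 109 of 14431 genes were higher in siGSTO1 than in C1-27 24 h (0.755%) and 34 were lower (0.236%), with an adjusted p under 0.05. This test takes its spread from the DMSO pair alone, since neither treatment was repeated, and assumes that both treated libraries vary as DMSO does. The fit shared that spread across genes, so a gene's p-value and SE do not measure its own difference between the DMSO libraries. CYP24A1, at 1.07 and 5.71 RPKM in DMSO, had an SE of 0.30. At the shares called here, a gene list without a call is not set apart from all genes. DESeq2 called 19 genes higher and 3 lower, and a gene given below with an adjusted p from edgeR alone was not among them. The edgeR test called 0 in either direction (886 higher and 585 lower at an unadjusted p under 0.05) when C1-14 was pooled with DMSO as a group of 3 libraries. All 109 and 34 calls were kept when C1-14 took the place of DMSO 2 in that group, and 99 and 33 when it took the place of DMSO 1. The labels number the DMSO libraries without saying that they came from separate cultures, and p-values then measure only the spread between these samples, which may be technical. By the study's rule of 1.4-fold in RPKM, 714 of 8191 genes with a mean RPKM above 0.5 were higher in siGSTO1 (8.72%) and 377 were lower (4.6%). That split became 543 higher and 618 lower when the RPKM were rescaled with DESeq2 size factors, and 575 higher and 552 lower with TMM factors. Since the filter uses the compared libraries themselves, a gene can pass it through the library in which it is high. With the filter set on the mean of the DMSO libraries instead, 562 of 7822 genes were higher (7.18%) and 397 lower (5.08%).

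The DMSO libraries differed from each other by at least as much. By the same 1.4-fold rule, 222 of 7825 genes were higher (2.84%) and 1275 lower (16.3%) in DMSO 2 than in DMSO 1, and the SD of the log2 RPKM ratio over genes was 0.388 for the DMSO pair and 0.374 for siGSTO1 over C1-27. Many genes lay in DMSO 1 on the side of siGSTO1 and in DMSO 2 on the side of C1-27. Many results are therefore given with a ratio of ratios as well, in which siGSTO1 is divided by DMSO 1 and C1-27 by DMSO 2 (the matched ratio), or siGSTO1 by DMSO 2 and C1-27 by DMSO 1 (the crossed ratio). Over all genes with a mean RPKM above 0.5, the median log2 ratio was -0.04, with -0.12 in the matched ratio and 0.04 in the crossed one. The labels name no batch for any library.

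**Figure D1:**
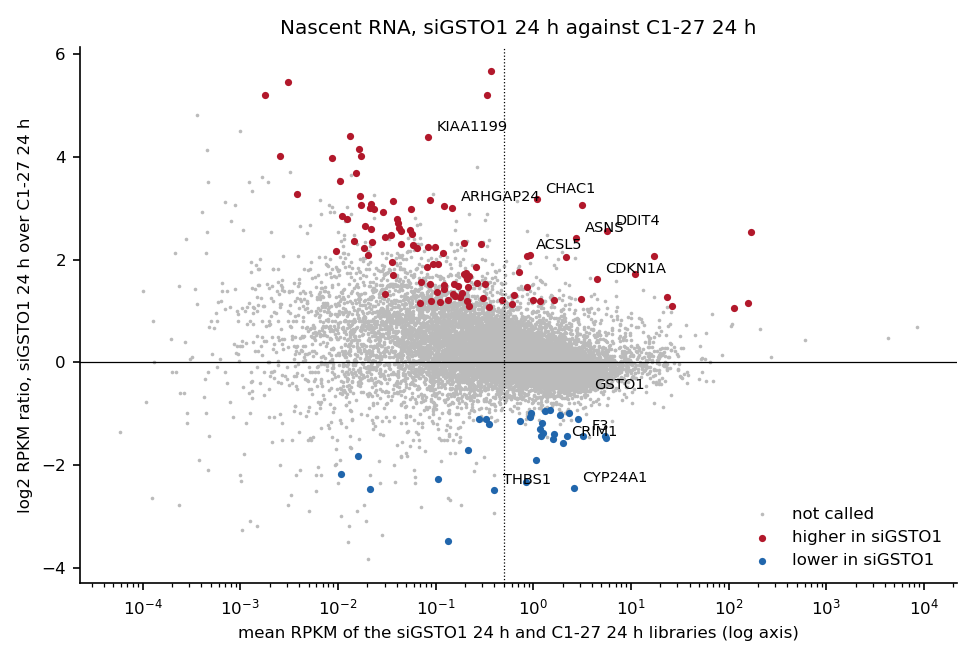
Log2 RPKM ratio of siGSTO1 24 h over C1-27 24 h (y) against the mean RPKM of both libraries (x, log axis), 1 point per gene tested with a value above 0 in both. Red and blue points are the genes called by edgeR, and most red points lie left of the dotted line at 0.5 RPKM. Of all 109 genes called higher, 86 had a mean RPKM of 0.5 or below. Called genes at 0 in either library (IGFBP7, VEGFC, APOB and SOX5) are not drawn.

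GSTO1 itself (chr10:106013952-106027222, plus strand, hg19) was at 3.51 and 3.72 RPKM in the DMSO libraries, 3.82 in C1-14, 3.78 in C1-27 4 h, 4.21 in C1-27 24 h and 2.70 in siGSTO1. The siGSTO1 library was the lowest of the 6 and the C1-27 24 h library the highest. The difference between them was not called (log2 fold change -0.70 ± 0.30 (SE), adjusted p = 0.506), although the ratio was below 1 in both pairings with DMSO (matched 0.679, crossed 0.605). The neighbouring gene GSTO2, which encodes the other omega transferase, stood at 3.52 RPKM in siGSTO1 and 3.57 in C1-27 24 h, with DMSO at 3.81 and 3.90. Of the 13 glutathione transferase genes tested, none was called in either direction (0.755% of all genes were called higher and 0.236% lower).

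Of 30 tested genes driven by ATF4 in the integrated stress response, 4 were called higher in siGSTO1 (CHAC1, ASNS, DDIT4 and STC2), against 0.755% of all genes. A log2 fold change above 0 was found in 29 of the 30 (7333 of all 14431 genes tested), and none was called lower. Of the 24 members with a mean RPKM above 0.5, 17 were at least 1.4-fold higher in siGSTO1 (8.72% of all genes), but 3 of the 24 were at or below 0.5 RPKM in C1-27 and passed through siGSTO1 alone. By the filter on DMSO, 19 members remained, of which 12 passed 1.4-fold upward in siGSTO1 (7.18% of all genes) and none downward. The median log2 RPKM ratio of the list was 0.97, against -0.04 over all genes. The DMSO pair also differed at these genes, with a median of 0.41 for DMSO 1 over DMSO 2, so the median was 0.29 in the matched ratio and 1.21 in the crossed one, and 11 of the 17 stayed past 1.4-fold in both.

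CHAC1 (chr15:41245636-41248717, plus strand, hg19), which cleaves glutathione, had 6 and 6 counts in DMSO, 3 in C1-14, 6 in C1-27 4 h, 31 in C1-27 24 h and 160 in siGSTO1. Its RPKM was 1.97 in siGSTO1 and 0.219 in C1-27 24 h, with every other library at 0.0832 or below, so both 24 h treatments were above DMSO and siGSTO1 was far above C1-27. The ratio was 9.03-fold (log2 fold change 3.11 ± 0.75, adjusted p = 0.00748), 5.18-fold in the matched ratio and 15.8-fold in the crossed one. ASNS (chr7:97481429-97501854, minus strand, hg19), asparagine synthetase, was at 0.883 and 0.681 RPKM in DMSO, 0.938 in C1-14, 0.744 in C1-27 4 h, 0.868 in C1-27 24 h and 4.62 in siGSTO1. The C1-27 24 h value lay within the range of the DMSO pair and siGSTO1 alone stood apart, 5.33-fold above C1-27 (log2 fold change 2.35 ± 0.35, adjusted p = 4.82e-08), with a matched ratio of 4.11. ASNS was also called by DESeq2 (adjusted p = 5.06e-06), which CHAC1 was not.

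DDIT4 (chr10:74033677-74035797, plus strand, hg19), an inhibitor of mTORC1, was at 0.887 and 0.546 RPKM in DMSO, 1.65 in C1-27 24 h and 9.70 in siGSTO1, which was 5.86-fold above C1-27 (adjusted p = 0.00266, edgeR, matched ratio 3.61). STC2, the secreted glycoprotein stanniocalcin 2, went the other way in the compound: DMSO was at 2.67 and 2.32 RPKM, C1-27 24 h below both at 1.84 and siGSTO1 above both at 4.33 (2.35-fold, adjusted p = 0.0255, edgeR, matched ratio 2.03). SLC7A11, the cystine transporter subunit that ATF4 and NRF2 both drive, was at 0.562 and 0.540 RPKM in DMSO, 0.603 in C1-14, 1.19 in C1-27 4 h, 1.78 in C1-27 24 h and 3.62 in siGSTO1. It was above DMSO in siGSTO1 and in both C1-27 libraries. The 2.03-fold difference between the 24 h libraries was not called (adjusted p = 0.0587, edgeR), and it was nearly the same in the matched (1.95) and crossed (2.11) ratios.

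Among members named after their values were seen, TRIB3, a pseudokinase that feeds back on ATF4, was at 2.20 RPKM in siGSTO1 and 0.897 in C1-27 24 h (DMSO 0.865 and 0.564), and SESN2, an amino acid sensor for mTORC1, at 2.11 and 0.880 (DMSO 0.562 and 0.471). DDIT3, which encodes CHOP, was above DMSO (1.21 and 0.848 RPKM) in both, at 3.60 in siGSTO1 and 2.08 in C1-27. None of the 3 was called. ATF4 itself, which is controlled mainly in translation, was at 17.0 RPKM in siGSTO1 and 13.9 in C1-27 24 h, with DMSO at 16.4 and 11.7, and its matched ratio was 0.876.

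The letters TGATGNAA, a core shared by composite C/EBP-ATF sites, were searched on both strands in RefSeq promoters (GRCh38.p14, 250 bases before to 50 after the start), which could be matched to 11084 of the 14431 genes and gave 11000 distinct promoters. They were in 1.91% of these, in 4 of 25 promoters of the ATF4 list (ASNS, ATF3, CHAC1 and HERPUD1) and in 5 of 81 promoters of genes called higher in siGSTO1 (ARID5B, ASNS, CARS, CHAC1 and SGPP2). No match was found in these windows for DDIT4 and STC2, which says nothing of sites elsewhere. The stretches before the start of CHAC1 (chr15:40953237-40953294, plus strand) and ASNS (chr7:97872444-97872501, minus strand) are shown because these genes had the largest differences in the list for which a match was found upstream. Capitals mark the match, which begins 209 and 68 bases before the start and is on the opposite strand in CHAC1.
CHAC1: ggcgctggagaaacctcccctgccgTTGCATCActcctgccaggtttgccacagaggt
ASNS: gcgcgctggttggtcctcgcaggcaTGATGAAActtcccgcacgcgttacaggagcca

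**Figure D2:**
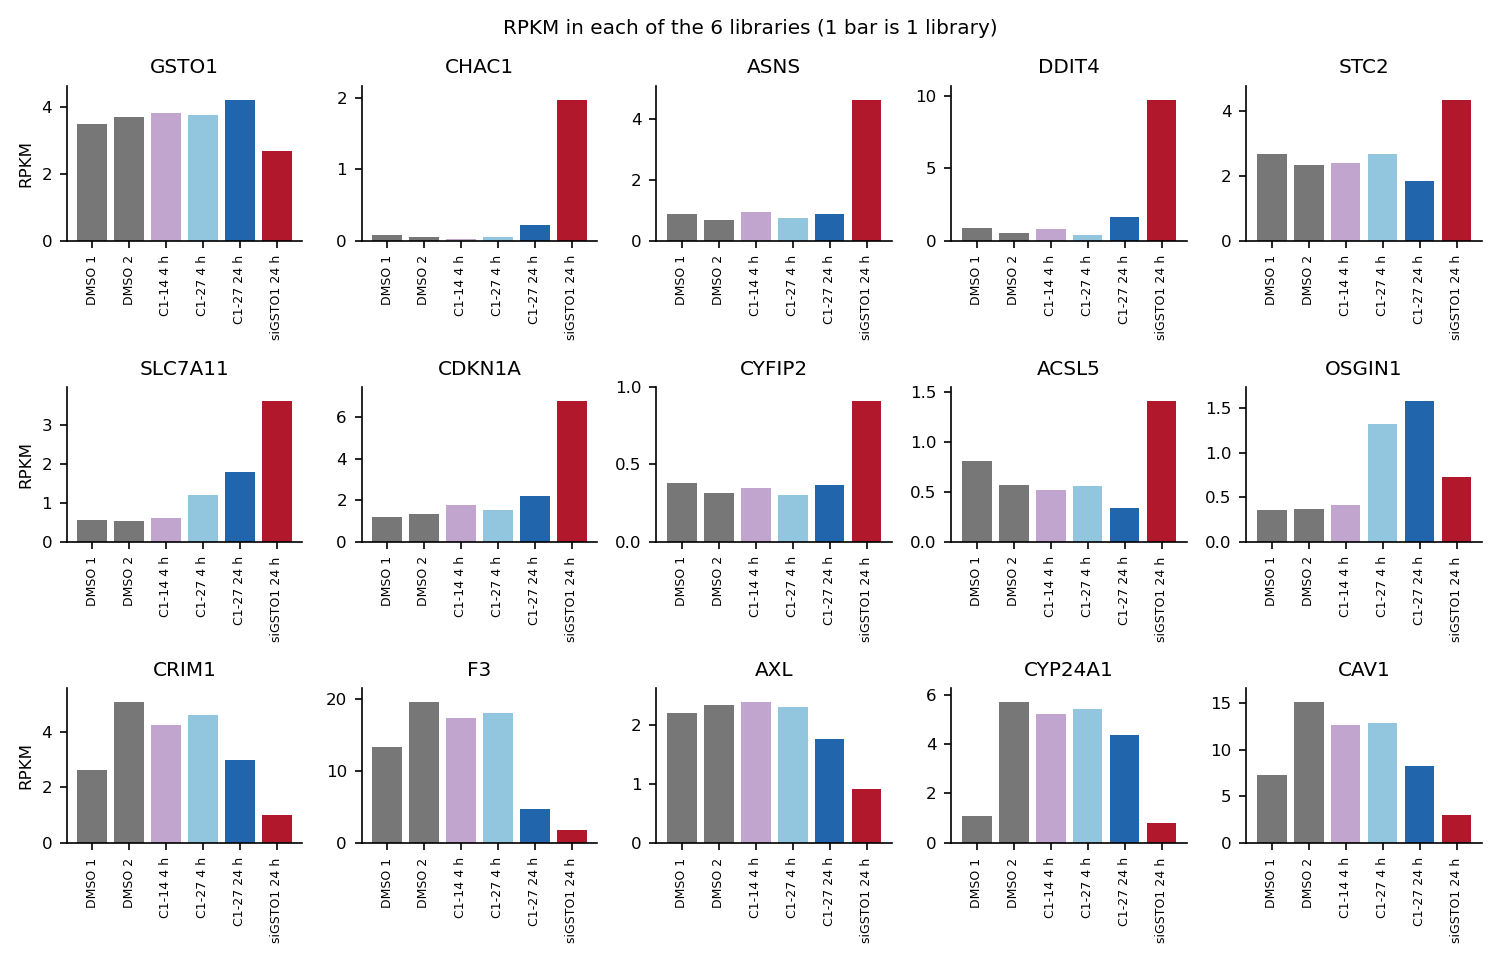
RPKM (y) of 15 genes in each of the 6 libraries, 1 bar per library, grey for DMSO, blue for C1-27, red for siGSTO1. ASNS and CYFIP2 stand out in siGSTO1 with C1-27 24 h near DMSO, OSGIN1 is highest in C1-27, and CYP24A1 is low in DMSO 1 (1.07) as well as in siGSTO1 (0.805).

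Genes that charge tRNAs and that make or carry amino acids were spread more widely. Of 23 cytosolic aminoacyl-tRNA synthetase genes, 9 were at least 1.4-fold higher in siGSTO1 (8.72% of all genes) and none lower, and 4 of the 9 stayed past 1.4-fold in both pairings. The list held 1 call (0.755% of all genes): CARS, the cysteinyl-tRNA synthetase, at 1.61 RPKM in siGSTO1 and 0.708 in C1-27 24 h (2.28-fold, adjusted p = 0.0311, edgeR), with DMSO at 0.737 and 0.457. The matched ratio of CARS was 1.41. SARS, the seryl-tRNA synthetase (named after its values were seen), was at 3.60 RPKM against 1.99 and between 1.63 and 1.89 in the 4 h libraries, and not called. The list's median log2 ratio was 0.18, but -0.06 in the matched ratio (-0.12 over all genes). Among 13 amino-acid transporters above 0.5 RPKM, 4 were at least 1.4-fold higher and 1 lower (8.72% and 4.6% of all genes), and 2 of the 4 stayed past it in both pairings. SLC38A2, a neutral amino acid transporter, was at 29.7 RPKM in siGSTO1, 18.2 in C1-27 24 h and 15.4 and 18.3 in DMSO, and not called. SLC7A5, the light chain of the leucine transporter, was at 2.69 RPKM in siGSTO1 and 1.31 in C1-27 24 h, the highest and the lowest of the 6 libraries (DMSO 2.06 and 1.63, adjusted p = 0.0541, edgeR). Serine and one-carbon genes were divided, with 10 of 21 below 0 and a median of -0.07. Of 16, 4 were at least 1.4-fold higher and 1 lower (8.72% and 4.6% of all genes), and 1 of the 4 stayed so in both pairings. Named after their values were seen, PSAT1 and PHGDH of serine synthesis had ratios of 1.97 and 2.13 and matched ratios of 1.55 and 1.26, and were not called.

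Part of the p53 target list was also higher in siGSTO1. Of 34 members tested, 2 were called higher (0.755% of all genes) and none lower, and 13 of 31 with a mean RPKM above 0.5 were at least 1.4-fold higher (8.72% of all genes) and none lower. By the filter on DMSO, 10 of 27 were higher (7.18% of all genes) and none lower (5.08%). The DMSO pair leaned slightly the other way (median log2 of DMSO 1 over DMSO 2 -0.15), and the list's median of 0.39 became 0.27 in the matched ratio and 0.29 in the crossed one. Of the 13, 7 stayed past 1.4-fold in both.

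CDKN1A, which encodes the cell cycle inhibitor p21, was at 1.18 and 1.32 RPKM in DMSO, 1.78 in C1-14, 1.53 in C1-27 4 h, 2.22 in C1-27 24 h and 6.79 in siGSTO1. Both 24 h libraries were above the others, and siGSTO1 was 3.06-fold above C1-27 (log2 fold change 1.55 ± 0.35, adjusted p = 0.00268, edgeR, and 0.0472, DESeq2), with a matched ratio of 3.40. CYFIP2, a subunit of the WAVE actin regulatory complex, was at 0.381 and 0.317 RPKM in DMSO, 0.365 in C1-27 24 h and 0.909 in siGSTO1 (2.49-fold, adjusted p = 0.0053, edgeR, matched ratio 2.07). MDM2, the ubiquitin ligase that restrains p53, was at 8.75 RPKM in siGSTO1, 6.28 in C1-27 24 h and 4.79 and 5.20 in DMSO, and not called. BBC3, the apoptosis gene PUMA (named after its values were seen), was at 1.12 RPKM in siGSTO1 and 0.307 in C1-27 24 h, with 0.285 and 0.145 in DMSO (adjusted p = 0.0946, edgeR, matched ratio 1.86).

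The NRF2 targets leaned the opposite way and gave no call, where 0.755% of all genes were called higher and 0.236% lower. Of 34 tested, 26 had a log2 fold change below 0 (7098 of all 14431 genes tested). Of 29 with a mean RPKM above 0.5, 9 were at least 1.4-fold lower in siGSTO1 than in C1-27 (4.6% of all genes) and 3 higher (8.72%). The 3 were SLC7A11, HMOX1 and SLC48A1. The list's median log2 ratio was -0.17, and it depended on the pairing with DMSO: -0.55 in the matched ratio and 0.23 in the crossed one. Both libraries had medians above DMSO, at 0.17 and 0.51 for siGSTO1 over DMSO 1 and 2, and 0.56 and 0.78 for C1-27. Of the 9 lower genes, 8 stayed past 1.4-fold in the matched ratio and 5 in both.

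OSGIN1, an oxidative stress growth inhibitor, was at 0.359 and 0.368 RPKM in DMSO, 0.409 in C1-14, 1.33 in C1-27 4 h, 1.58 in C1-27 24 h and 0.726 in siGSTO1. Both C1-27 libraries and siGSTO1 were above DMSO, and siGSTO1 was the lowest of these (2.18-fold below C1-27 24 h, adjusted p = 0.328, edgeR). GCLM, the regulatory subunit of glutathione synthesis, was at 4.74 RPKM in C1-27 4 h, 3.31 in C1-27 24 h and 1.90 in siGSTO1, which lay below both DMSO libraries (2.27 and 2.38). TXNRD1, thioredoxin reductase, was at 9.17 and 7.31 RPKM in C1-27 4 h and 24 h, 4.12 in siGSTO1 and 4.12 and 5.09 in DMSO. CYP4F11, a fatty acid hydroxylase, was at 1.14 RPKM in C1-27 24 h, 0.493 in siGSTO1 and 0.479 and 0.403 in DMSO. In the last 3 genes, named after their values were seen, siGSTO1 was within or near the DMSO pair while C1-27 was above it. HMOX1, heme oxygenase, went against them, at 0.759 RPKM in siGSTO1, 0.501 in C1-27 24 h and 0.727 in C1-27 4 h (DMSO 0.338 and 0.310). The ferritin light chain gene FTL was above DMSO (11.4 and 5.49 RPKM) by like amounts in both, at 22.2 in siGSTO1 and 23.5 in C1-27 24 h.

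The core of the antioxidant response element, TGACNNNGC, was in 14.8% of all promoters and in 6 of 25 of the NRF2 list (CYP4F11, GCLM, ME1, PGD, PIR and TXNRD1). The matches upstream of 3 genes that were lower in siGSTO1 are shown in capitals: GCLM (chr1:93909431-93909489, minus strand, 34 bases before the start, opposite strand), TXNRD1 (chr12:104215655-104215713, plus strand, 99 bases before) and CYP4F11 (chr19:15934990-15935048, minus strand, 156 bases before, opposite strand), all GRCh38.p14.
GCLM: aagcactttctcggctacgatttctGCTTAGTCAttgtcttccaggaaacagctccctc
TXNRD1: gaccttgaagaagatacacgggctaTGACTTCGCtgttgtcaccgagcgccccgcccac
CYP4F11: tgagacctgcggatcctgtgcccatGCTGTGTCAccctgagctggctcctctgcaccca

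Genes of DNA replication and nucleotide synthesis gave no call, where 0.755% of all genes were called higher and 0.236% lower. Most replication genes had lower values in siGSTO1. Of 53 tested, 51 had a log2 fold change below 0 (range -0.89 to 0.41), as did 7098 of all 14431 genes tested. The siGSTO1 library was the lowest of the 6 for 46 of the 52 above 0.5 RPKM, a count given without its share over all genes. Of these 52, 11 were at least 1.4-fold lower (4.6% of all genes) and none higher, and 4 of the 11 stayed past 1.4-fold in both pairings. The median log2 ratio was -0.35, and it was below 0 in the matched (-0.48) and crossed (-0.29) ratios alike. The DMSO pair differed by a median of 0.11. C1-27 24 h stood closer to DMSO, with medians of -0.14 and -0.03 over DMSO 1 and 2, against -0.51 and -0.37 for siGSTO1.

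DUT, which keeps dUTP out of DNA, was at 5.53 and 5.23 RPKM in DMSO, between 5.00 and 5.08 in the 3 compound libraries and at 2.83 in siGSTO1 (adjusted p = 0.151, edgeR). POLA2, a subunit of DNA polymerase alpha, was between 1.48 and 1.69 RPKM in the other 5 libraries and at 0.999 in siGSTO1. MCM3, a subunit of the replicative helicase, was between 8.13 and 8.99 RPKM in the other 5 and at 5.56 in siGSTO1. In each the 5 other libraries were close together. DUT and POLA2 were named after their values were seen. Of the genes that start S phase, CCNE1 (cyclin E1) was at 0.532 RPKM in siGSTO1 and 1.15 in C1-27 24 h (DMSO 1.02 and 0.854, adjusted p = 0.324, edgeR). CCND1 (cyclin D1) and MYC were below DMSO in both 24 h libraries: CCND1 at 2.59 in siGSTO1 and 3.36 RPKM in C1-27, with DMSO at 6.55 and 4.62, and MYC at 10.1 RPKM in C1-27 and 1.08 times that in siGSTO1, with DMSO at 22.8 and 20.2.

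The E2F core TTTCCCGC was in 2.53% of all promoters and in 11 of 44 of the replication list, MCM3 and UHRF1 among them. It is shown in capitals upstream of MCM3 (chr6:52284884-52284941, minus strand, GRCh38.p14, 174 bases before the start), the member whose values are given above.
MCM3: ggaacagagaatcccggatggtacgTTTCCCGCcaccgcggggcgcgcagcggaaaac

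Cholesterol synthesis separated the libraries little. Of 26 genes of cholesterol synthesis and uptake none was called (0.755% of all genes higher and 0.236% lower). The median log2 ratio was 0.04. Both 24 h libraries stood above the 4 h DMSO libraries, with medians of 0.62 and 0.73 for siGSTO1 and 0.73 and 0.87 for C1-27 over DMSO 1 and 2. INSIG1, which holds SREBP in the endoplasmic reticulum, was at 2.95 RPKM in siGSTO1, 2.03 in C1-27 24 h and between 0.566 and 0.688 in the 4 h libraries. FDFT1, squalene synthase, was at 1.86 RPKM in siGSTO1 and 2.23 in C1-27 24 h, above the 0.721 to 0.878 of the 4 h libraries. SREBF1, which encodes a transcription factor of lipid synthesis, was at 2.87 RPKM in siGSTO1, with DMSO 1 at 1.71 and DMSO 2 at 0.994, and its matched ratio was 0.931. None of these 3 differences was called. Of 27 genes of fatty acid and triglyceride synthesis, 20 had a log2 fold change above 0 (7333 of all 14431 genes tested). Of 18 above 0.5 RPKM, 5 were at least 1.4-fold higher in siGSTO1 and 1 lower (8.72% and 4.6% of all genes). The median log2 ratio was 0.28, and 0.07 in the matched ratio, and 1 of the 5 stayed past 1.4-fold in both pairings. Of the 27, 1 was called (0.755% of all genes). It was ACSL5, an acyl-CoA synthetase, at 0.810 and 0.566 RPKM in DMSO, 0.334 in C1-27 24 h and 1.41 in siGSTO1. The compound lay below both DMSO libraries and siGSTO1 above both (4.22-fold, log2 fold change 2.02 ± 0.33, adjusted p = 8.98e-07, edgeR, and 0.000339, DESeq2), with a matched ratio of 2.95.

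**Figure D3:**
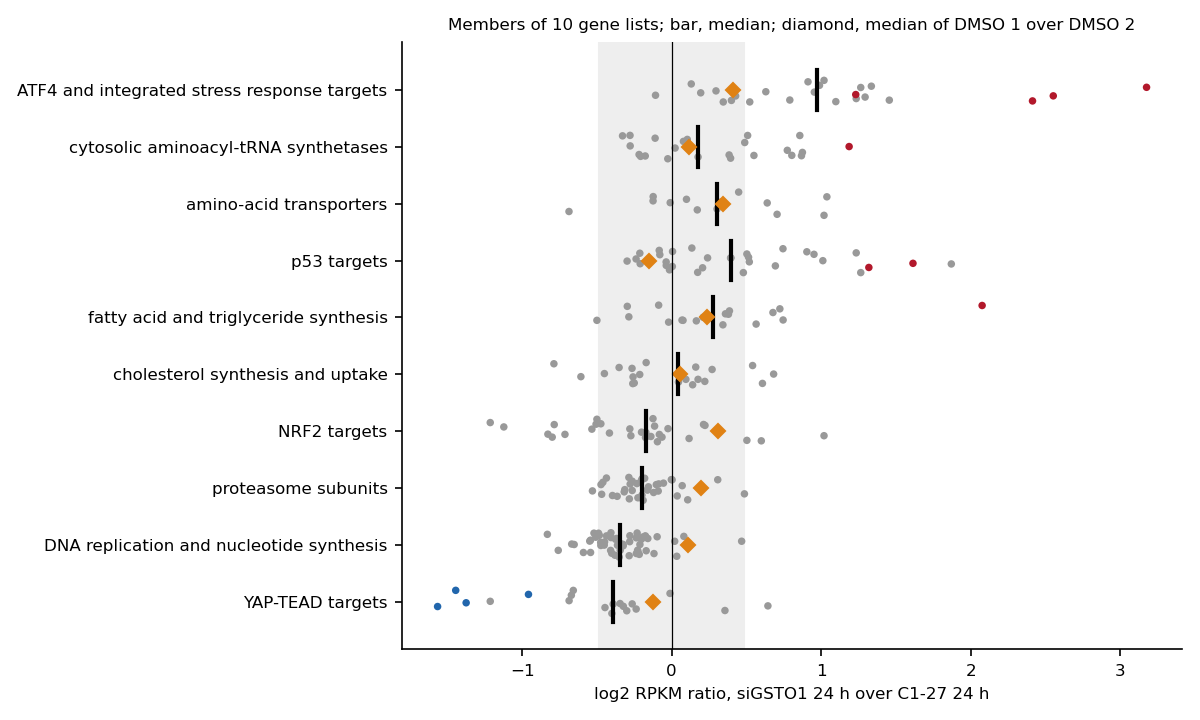
Log2 RPKM ratio of siGSTO1 24 h over C1-27 24 h (x) for members above 0.5 RPKM of 10 gene lists (y), red or blue where edgeR called them, with the grey band within 1.4-fold, the black bar at the list's median and the orange diamond at the median of DMSO 1 over DMSO 2. The ATF4 list is centred at 0.97 with its diamond at 0.41, and the replication list at -0.35 with its diamond at 0.11.

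Targets of YAP and TEAD gave calls in the other direction. Of 27 tested, 5 were called lower in siGSTO1 and none higher (0.236% of all genes called lower). Of 20 above 0.5 RPKM, 8 were at least 1.4-fold lower (4.6% of all genes) and 1 higher (8.72%). Of the 8, 5 stayed past 1.4-fold in both pairings, and for 3 the DMSO pair differed at least 1.4-fold in the same direction. Both 24 h libraries lay below the 4 h DMSO libraries, with medians of -0.75 and -0.91 for siGSTO1 and -0.33 and -0.52 for C1-27 over DMSO 1 and 2. The list's median of -0.40 stayed below 0 in the matched (-0.29) and crossed (-0.62) ratios.

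AXL, a receptor tyrosine kinase, was at 2.20 and 2.33 RPKM in DMSO, 2.38 in C1-14, 2.31 in C1-27 4 h, 1.76 in C1-27 24 h and 0.906 in siGSTO1, so that the DMSO libraries were close and both 24 h libraries lower (1.94-fold between them, adjusted p = 0.0345, edgeR, matched ratio 0.545). F3, tissue factor, was at 13.4 and 19.6 RPKM in DMSO, 17.4 in C1-14, 18.1 in C1-27 4 h, 4.74 in C1-27 24 h and 1.74 in siGSTO1. It was low in both 24 h libraries and lowest in siGSTO1 (2.72-fold, log2 fold change -1.50 ± 0.30, adjusted p = 0.000296, edgeR, and 0.0454, DESeq2), with a matched ratio of 0.538. AMOTL2, which binds YAP at junctions, was at 0.708 RPKM in siGSTO1 and 1.84 in C1-27 24 h (2.59-fold, adjusted p = 0.00157, edgeR, matched ratio 0.52), with DMSO at 2.40 and 3.23. CRIM1, a transmembrane protein that binds BMPs, was at 1.01 and 2.99 RPKM (2.96-fold, adjusted p = 0.00263, edgeR), but DMSO 1, at 2.64, lay below C1-27 24 h and DMSO 2, at 5.09, above it. THBS1, thrombospondin 1, was at 0.121 RPKM in siGSTO1, 0.679 in C1-27 24 h, 0.694 in DMSO 1 and 2.13 in DMSO 2 (5.62-fold, adjusted p = 8.98e-07, edgeR). The DMSO pair differed 3.07-fold, and the matched ratio of THBS1 was 0.546. DESeq2 called F3 but not AXL, AMOTL2, CRIM1 or THBS1. CYR61, matrix protein and classic YAP target, was at 1.14 RPKM in siGSTO1, 2.65 in C1-27 24 h and 4.62 and 8.33 in DMSO, and not called (adjusted p = 0.124, edgeR).

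Outside that list, the caveolar coat genes CAV1 and CAV2 were called lower, at 2.95 and 2.92 RPKM in siGSTO1 against 8.21 and 7.94 in C1-27 24 h. CAV1 was at 7.30 RPKM in DMSO 1 and 15.1 in DMSO 2, and its matched ratio was 0.745. CPA4, a secreted carboxypeptidase, was at 1.83 and 3.12 RPKM in DMSO, 1.42 in C1-27 24 h and 0.282 in siGSTO1, below every other library (5.05-fold, adjusted p = 4.18e-11, edgeR, and 0.000119, DESeq2), and its matched ratio was 0.339. S100A10, a partner of annexin A2, was at 0.840 RPKM against 2.36, with DMSO at 2.40 and 3.42. The integrin subunit ITGB5 was at 0.453 against 1.00 RPKM, with DMSO at 0.930 and 1.23, and the keratin KRT80 at 0.0364 against 0.177 RPKM, with DMSO at 0.294 and 0.373. SMAD7, the inhibitor of TGF-beta receptors, was at 0.0222 RPKM in siGSTO1, 0.249 in C1-27 24 h, 0.079 in DMSO 1 and 0.302 in DMSO 2. BMP4, a growth factor of that family, was at 0.805 against 1.49 RPKM and not called, with DMSO at 1.93 and 2.91. DESeq2 called CPA4 but not CAV1, CAV2, S100A10, ITGB5, KRT80 or SMAD7.

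In other genes called lower, the DMSO pair also differed. CYP24A1, the vitamin D 24-hydroxylase, was at 1.07 RPKM in DMSO 1, 5.71 in DMSO 2, 5.21 in C1-14, 5.41 in C1-27 4 h, 4.39 in C1-27 24 h and 0.805 in siGSTO1. It was called strongly (5.45-fold lower, adjusted p = 3.79e-13, edgeR), yet DMSO 1 and siGSTO1 lay together apart from the other 4 libraries, and the matched ratio was 0.98. VCAN (versican), CLIP4 and SRGAP1 were also called lower, with folds of 3.74, 2.71 and 2.63 between the treatments and 2.41, 2.04 and 2.22 between DMSO 2 and DMSO 1, and matched ratios of 0.646, 0.751 and 0.844. For WNT16 (1.20 RPKM in siGSTO1, 3.25 in C1-27 24 h, 1.76 and 5.61 in DMSO) and ITGB8 the matched ratio was above 1, at 1.18 and 1.54. DESeq2 called none of CYP24A1, VCAN, CLIP4, SRGAP1, WNT16 and ITGB8.

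The TEAD core GGAATG was in 10.7% of all promoters, in 8 of 18 of the YAP-TEAD list and in 4 of 26 of the genes called lower (CPA4, IRS1, THBS1 and WNT16). The AP-1 core TGANTCA, which reads alike on both strands, was in 4.64% of all promoters and in 3 of 26 of the genes called lower (CPA4, F3 and RSPH3). The 2 matches in each of F3 (chr1:94541938-94542007, minus strand) and CPA4 (chr7:130293088-130293160, plus strand), both called lower by edgeR and DESeq2, and the TEAD match of THBS1 (chr15:39581008-39581063, plus strand), all GRCh38.p14, are shown in capitals.
F3: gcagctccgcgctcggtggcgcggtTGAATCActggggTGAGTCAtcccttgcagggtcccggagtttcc
CPA4: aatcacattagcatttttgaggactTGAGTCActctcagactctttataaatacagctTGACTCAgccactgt
THBS1: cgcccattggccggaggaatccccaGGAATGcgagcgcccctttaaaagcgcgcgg

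Across all calls, the DMSO pair differed at least 1.4-fold in the same direction for 49 of 108 genes called higher in siGSTO1 and 25 of 33 called lower that had a value in both DMSO libraries. The difference stayed past 1.4-fold in both pairings for 96 of the 109 higher and 17 of the 34 lower, and siGSTO1 lay beyond all 5 other libraries for 100 and 30. The matched ratio had the opposite sign for 4 of the higher and 5 of the lower calls. Of the genes that passed 1.4-fold without a test, 161 of 714 higher and 116 of 377 lower stayed past it in both pairings. What set DMSO 1 apart from DMSO 2, and its part in these calls, was not tested.

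**Figure D4:**
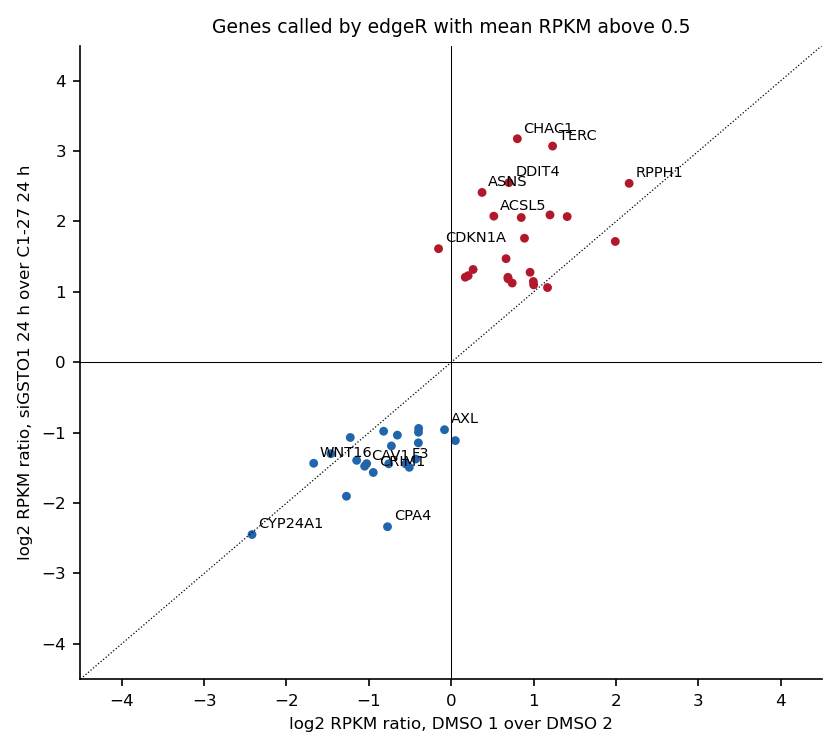
Log2 RPKM ratio of siGSTO1 24 h over C1-27 24 h (y) against that of DMSO 1 over DMSO 2 (x) for the 45 genes called by edgeR with a mean RPKM above 0.5; on the dotted diagonal both are equal. CYP24A1 lies on the diagonal, and CDKN1A and AXL lie near an x of 0.

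Several short RNAs had higher values in siGSTO1, DMSO 1 and C1-14 than in the other 3 libraries. RPPH1, the RNA of ribonuclease P, was at 293 RPKM in siGSTO1, 50.3 in C1-27 24 h, 172 in DMSO 1, 38.5 in DMSO 2, 56.7 in C1-27 4 h and 654 in C1-14 (adjusted p = 6.12e-13, edgeR, matched ratio 1.30). SCARNA2, which guides modification of spliceosomal RNA, was at 27.8 and 6.61 RPKM, with 26.4 in DMSO 1, 9.94 in DMSO 2 and 18.2 in C1-14. TERC, the RNA template of telomerase, was at 5.67 and 0.675 RPKM, with 3.79 and 1.62 in DMSO, and kept a matched ratio of 3.58. DESeq2 called none of RPPH1, SCARNA2 and TERC. Of 41 replication-dependent histone genes above 0.5 RPKM, 32 were at least 1.4-fold higher in siGSTO1 (8.72% of all genes), with a median log2 ratio of 1.00. For these genes, however, the median of DMSO 1 over DMSO 2 was 1.14 and that of the matched ratio -0.12. Their summed level was 276 RPKM in siGSTO1, 148 in C1-27 24 h, 304 in DMSO 1, 153 in DMSO 2 and 635 in C1-14. Of 76 cytosolic ribosomal protein genes, 17 were at least 1.4-fold higher (8.72% of all genes) and 1 was called (RPL7A, 2.14-fold, against 0.755% of all genes), with medians of 0.23 between the treatments, 0.40 in the DMSO pair and -0.17 in the matched ratio. By gene size, the median log2 ratio went from 0.28 for genes of 0.3 to 3 kb to -0.10 for genes of 100 to 300 kb, and that of the DMSO pair from 0.35 to -0.10.

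**Figure D5:**
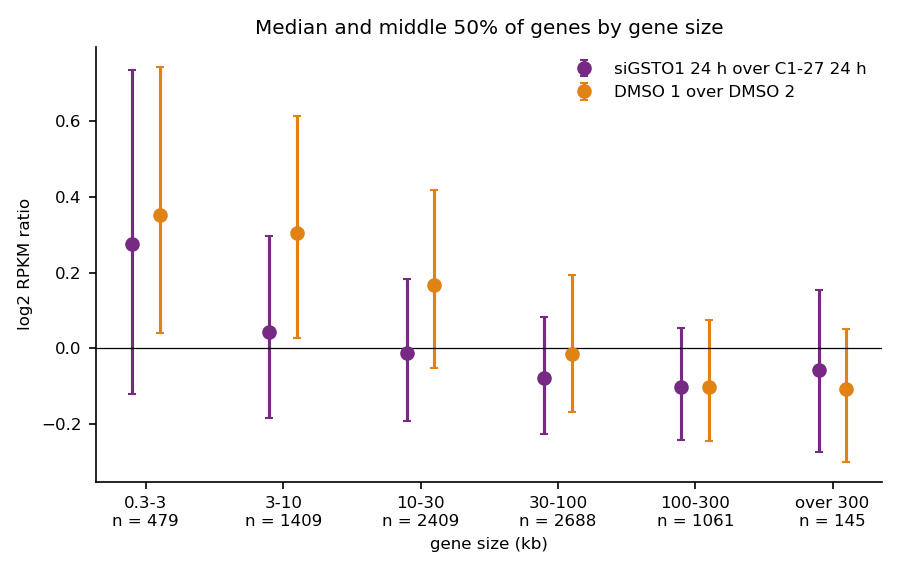
Median log2 RPKM ratio (points, y) and the quartiles (bars) by gene size in kb (x), for siGSTO1 24 h over C1-27 24 h (purple) and DMSO 1 over DMSO 2 (orange). Both are highest for the shortest genes (0.28 and 0.35) and below 0 above 30 kb.

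Other genes called higher by edgeR had varied functions. SOX4, a developmental transcription factor, was at 3.51 RPKM in siGSTO1, 0.843 in C1-27 24 h and 1.32 and 0.735 in DMSO (4.16-fold, adjusted p = 0.0179, edgeR, matched ratio 2.31). MAN1A1, a mannosidase that trims N-glycans, was at 1.27 and 0.456 RPKM, with 0.508 and 0.320 in DMSO (adjusted p = 0.000296, edgeR, matched ratio 1.75). KIAA0040 was 3.39-fold higher in siGSTO1 than in C1-27 24 h (0.326 RPKM), with DMSO at 0.671 and 0.363 and a matched ratio of 1.83, and GPR110, an adhesion receptor, at 1.49 and 0.350 RPKM with DMSO 1 at 2.12, above siGSTO1, and DMSO 2 at 0.924. BIRC3, an inhibitor of apoptosis induced by NF-kappaB, was at 0.326 and 0.0648 RPKM, with DMSO at 0.0915 and 0.267. DESeq2 called none of SOX4, MAN1A1, KIAA0040, GPR110 and BIRC3.

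Several other programmes gave no call, where 0.755% of all genes were called higher and 0.236% lower. Of 36 interferon-stimulated genes tested none was called, and only 10 were above 0.5 RPKM, with a median log2 ratio of 0.02. B2M, the light chain of MHC class I, was 1.44-fold higher in siGSTO1, and EIF2AK2 (the RNA-sensing kinase PKR) was at a ratio of 0.894. Of 33 genes of endoplasmic reticulum chaperones and the unfolded protein response none was called, with a median of 0.05. HSPA5, the chaperone BiP, was at 9.99 RPKM in siGSTO1, 8.23 in C1-27 24 h and 8.95 in DMSO 1, which was 1.87 times DMSO 2. DNAJB9 was at 1.16 and 1.09 RPKM, with DMSO at 0.569 and 0.557. Of 36 proteasome subunits none was called and 32 were below 0 (7098 of all 14431 genes tested), with a median of -0.20. It was -0.47 in the matched ratio and -0.06 in the crossed one. Past 1.4-fold lay 1 subunit in each direction (8.72% of all genes higher and 4.6% lower).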

How the data were processed

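Nascent RNA of 6 HCT116 libraries was read from 1 table per library, of which siGSTO1 24 h and C1-27 24 h were compared and the others served as background. The authors deposited estimated counts of reads per gene, a mean coverage signal and RPKM (reads per kilobase, scaled to the mapped reads), on sense and antisense rows. The submitters' processing notes name CASAVA 1.8.2, Bowtie 0.12.8, TopHat 1.4.1, bedtools 2.16.2 and hg19, without roles. The label gives 24 h for siGSTO1, although a sentence of the study's methods can be read as 4 h. The coverage signal was not tested.

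Only sense rows of genes above 300 bp were used. Counts were rounded and tested with edgeR 4.0.16 in R 4.3.3 (quasi-likelihood, TMM, 5 groups, genes with at least 10 counts in 2 libraries, Benjamini-Hochberg over 14431 genes). The fit had 1 residual degree of freedom, and its common dispersion was 0.0381. RPKM ratios were taken without a pseudocount where the mean RPKM of both libraries was above 0.5. A filter on the mean RPKM of DMSO was added after seeing the data. DESeq2 1.42.0, other scalings, filters and thresholds were alternatives. On simulated counts with a dispersion of 0.04, 180 of 200 planted 4-fold changes and 4 of 200 planted 2-fold changes were found among 14431 genes.

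Genes were named by rule: GSTO1, GSTO2, the genes the study names for nascent RNA, the 12 with the largest called change in each direction above 0.5 RPKM (histone and largely overlapped genes left out), and up to 5 called members of each list, or its 3 highest where fewer were called. Some genes that the rule names are not reported here. The lists and members were chosen with earlier results of these data known. Promoters came from RefSeq (GRCh38.p14), whereas gene positions are hg19. Python 3.11.15 with pandas 2.3.3 was used for tables. Intervals cover counting error only.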

Additional observations from a re-analysis of the deposited data

Results flagged for a closer look

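Antisense counts, which no comparison above used, made up 3.47% of all gene counts in siGSTO1 (Wilson 95% interval 3.461 to 3.477%, counting error only), above both DMSO libraries (3.12% and 2.85%), which is why this value is given. The share was 3.11% in C1-27 24 h, 2.93% in C1-27 4 h and 3.96% in C1-14, so the inactive analogue was higher still.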

How the results depend on the processing

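The count of called genes depended on the source of the spread. Against 109 higher and 34 lower in edgeR, DESeq2 gave 19 and 3, all of them among the edgeR calls, and pooling C1-14 with DMSO gave 0 and 0. With C1-14 pooled and 1 DMSO library left out, the counts were 225 to 499 higher and 71 to 325 lower, the wider without DMSO 1. Of the 109 and 34 main calls, 23 and 22 had a mean RPKM above 0.5. Other scalings, count filters and a fit of 4 libraries gave 105 to 131 higher and 27 to 40 lower. Every edgeR and DESeq2 alternative compared the same 2 libraries, so the 37 named calls could hardly change sign, and none did. Of the 37, 5 stayed called with DESeq2 and 0 with C1-14 pooled.

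The 1.4-fold counts of 714 and 377 became 4210 and 1158 without a filter on RPKM, 356 higher above a mean of 1 RPKM, 154 and 32 at 2-fold, and 618 lower with DESeq2 size factors. In the ratios of ratios, chosen after seeing the data, they were 409 and 1153 (matched) and 1968 and 997 (crossed). Among the named genes called, the matched log2 values of WNT16 (0.24), ITGB8 (0.63) and HIST1H1E (-0.27) had the opposite sign; over all calls it was 4 of 109 higher and 5 of 34 lower. The DMSO pair gave 468 higher and 836 lower in DMSO 2 with DESeq2 size factors. The cause of these shifts was not tested. No paired analysis was possible because only DMSO carries replicate numbers. With 1 library per treatment, 2-fold differences were mostly out of reach of the test.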

Other observations

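Most genes called higher in siGSTO1 were long genes at low levels. Of the 109, 86 had a mean RPKM of 0.5 or below (43.31% of all genes tested did), and 73 of these 86 were longer than 100 kb (17.87% of all genes tested were). Their median size was 237.5 kb, against 29.02 kb over all genes tested and 10.88 kb for the 23 called at higher levels. RPKM divides counts by gene length, so genes with enough counts for a call at a low RPKM are mostly long. Of the 34 called lower, 12 were at 0.5 RPKM or below, and 7 of these 12 were longer than 100 kb (median 159 kb). In 82 of the 86, siGSTO1 lay above all 5 other libraries. The genes below were named after their values were seen. ARHGAP24, which inactivates Rac, had 592 and 610 counts in DMSO, 482 in C1-14, 519 in C1-27 4 h, 794 in C1-27 24 h and 3658 in siGSTO1 (8.08-fold in RPKM, adjusted p = 1.01e-08, DESeq2). FYN, a kinase of the SRC family, had 918 and 1117 counts in DMSO, 1090 in C1-27 24 h and 2256 in siGSTO1 (3.63-fold). GRIK2, a glutamate receptor subunit, had 24 and 75 counts in DMSO, 68 in C1-27 24 h and 501 in siGSTO1. KIAA1199 had 139 and 66 counts in DMSO, 61 in C1-27 24 h and 730 in siGSTO1. In each of the 4, siGSTO1 had the highest RPKM of the 6 libraries.

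Immediate-early genes gave no call (0.755% of all genes were called higher and 0.236% lower). Of 22 above 0.5 RPKM, 9 were at least 1.4-fold higher in siGSTO1 and 3 lower (8.72% and 4.6% of all genes), with a median log2 ratio of 0.36, and 6 of the 9 stayed past 1.4-fold in both pairings with DMSO. KLF4 was 3.91-fold higher (adjusted p = 0.219, edgeR).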
